A study of Mus musculus with 3 samples.

Results

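The miR-15, miR-16, miR-195 and miR-497 family was followed in the developing mouse retina through 9 mature miRNAs, of 1915 listed for each library. These were the rows named mmu-miR-15a-5p, mmu-miR-15a-3p, mmu-miR-15b-5p, mmu-miR-15b-3p, mmu-miR-16-5p, mmu-miR-16-1-3p, mmu-miR-16-2-3p, mmu-miR-195a-5p and mmu-miR-497a-5p, chosen by name and not by level. The samples were retinas of C57BL/6 mice, taken on postnatal days 1, 7 and 17 (P1, P7 and P17) in the course of normal development, with no treatment named in the labels. Retinas of 5 eyes were pooled into 1 small RNA library per age. There are therefore no replicates, no difference between ages was tested, and library and age cannot be told apart. Strain and tissue were the same at all ages, and whole retinas were used, so that fewer cells of a type and less of a miRNA per cell cannot be told apart.

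A miRNA hairpin is cut to a duplex of a 5p and a 3p strand. Usually 1 strand, the guide, is kept in an Argonaute protein and pairs through its seed, bases 2 to 8, with messenger RNAs, while the other, the passenger, is degraded. The 5p strands of this family are guides that share a seed and are known for repressing cyclins, other regulators of the cell division cycle and the survival factor Bcl2. In the P1 retina progenitor cells still divide, whereas by P17 the neurons are in place.

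The sequences below, from RefSeq on GRCm38.p6, are shown because the family is defined by its seed and because the members were told apart by only a few bases. All 9 members were matched. Each is written 5′ to 3′ with bases 2 to 8 in capitals.
mmu-miR-15a-5p: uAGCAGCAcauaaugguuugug
mmu-miR-15b-5p: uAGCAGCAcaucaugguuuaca
mmu-miR-16-5p: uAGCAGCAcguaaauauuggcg
mmu-miR-195a-5p: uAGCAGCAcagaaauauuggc
mmu-miR-497a-5p: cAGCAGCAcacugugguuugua
mmu-miR-15a-3p: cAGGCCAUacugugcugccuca
mmu-miR-15b-3p: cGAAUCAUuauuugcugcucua
mmu-miR-16-1-3p: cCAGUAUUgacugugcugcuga
mmu-miR-16-2-3p: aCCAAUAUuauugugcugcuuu
The 5 members from 5p arms had the same seed, AGCAGCA, which 10 of the 1679 mature miRNAs in the RefSeq table carry. The 4 members from 3p arms had 4 different seeds. Near their 3′ end, miR-15b-3p, miR-16-1-3p and miR-16-2-3p held UGCUGCU, the reverse complement of the 5p seed (searched on the RNA strand only), and miR-15a-3p held 6 of these 7 bases. UGCUGCU was found in 5 of the 1679 sequences. MiR-15a-5p and miR-15b-5p were 4 single-base edits apart, and miR-16-5p and miR-195a-5p were 3 apart, with a shared run of 10 bases from base 12. Counts of such near-identical forms are uncertain where the authors' counting could have split or shared their reads.

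The members come from 3 pairs of neighbouring hairpins. On chromosome 14 of GRCm38, the build also called mm10, Mir15a (ENSMUSG00000093007, chr14:61632027-61632110) and Mir16-1 (ENSMUSG00000092995, chr14:61631880-61631972) lie 54 bases apart on the minus strand. Both are intronic in all 8 transcripts that span them of Dleu2, a long non-coding RNA gene. On chromosome 3, Mir15b (ENSMUSG00000065580, chr3:69009772-69009835) and Mir16-2 (ENSMUSG00000065606, chr3:69009902-69009996) lie 66 bases apart on the plus strand. They are intronic in all 5 spanning transcripts of Smc4, which encodes a subunit of the condensin complexes that compact chromosomes at mitosis. On chromosome 11, Mir497 (ENSMUSG00000105220, chr11:70234717-70234800) and Mir195a (ENSMUSG00000065411, chr11:70235042-70235135) lie 241 bases apart on the plus strand, and the GENCODE annotation places no host gene over them on that strand. Mir497b (chr11:70234692-70234816), on the minus strand, covers Mir497. Mir16-1 and Mir16-2 give the same mature miR-16-5p, so its reads cannot be assigned to a locus, whereas their 3p strands differ.

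Between 11426320 (P1) and 12759995 (P7) reads were assigned to miRNAs in a library. Levels are given in RPM, the standard unit of reads scaled to the total miRNA reads of the library, so that a rise of abundant miRNAs lowers all others. The cluster of miR-182, miR-183 and miR-96, known from photoreceptors, took 7.85% of the P1 reads, 30.6% of the P7 reads and 30.2% of the P17 reads. The median log2 change of the 648 miRNAs whose mean over the 3 libraries reached 1 RPM was -1.004 from P1 to P7, -0.06 from P7 to P17 and -1.04 from P1 to P17. Median-of-ratios size factors, which bring the typical miRNA near 0, gave -0.04, 0.03 and 0.01. Changes of members that start from P1 are therefore given with both scalings. Intervals are 95% and stand for counting error alone, because 1 library per age gives no spread between samples. Reads from PCR that carry no molecular identifier are not independent molecules, so the intervals may be too narrow even for counting error.

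Summed over the 9 members, the family took 4985 RPM in P1 retinas (4944 to 5026, Wilson interval), 3674 RPM in P7 retinas (3641 to 3707) and 2594 RPM in P17 retinas (2565 to 2623). As a share of the library the sum was lower at each later age. The log2 change from P1 to P17 was -0.94 (exact binomial interval -0.96 to -0.92), or 1.92-fold, but it was 0.10 with median-of-ratios size factors. Over the whole period the sum thus changed about as much as the typical miRNA, but not at each step. From P1 to P7 its change was -0.44 with RPM and 0.52 with size factors, where the median of all was -0.04. Between P7 and P17, where the scalings nearly coincide, the change was -0.50 with RPM and -0.42 with size factors. MiR-16-5p made up 78.5%, 84.8% and 89.5% of the family's reads in the P1, P7 and P17 libraries. The sum is thus mainly the level of a single miRNA, and the other members are given singly.

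All 9 members were among these 648 miRNAs, and 6 were over 2-fold lower at P17 than at P1 and none was over 2-fold higher. Over the 648 miRNAs the shares were 51.2% lower and 11.0% higher. With size factors 5 members were over 2-fold lower and 1 higher, against 27.6% and 26.9% of the 648. The 6 were all 4 members from 3p arms, miR-15a-5p and miR-15b-5p. From P1 to P7, 5 members were over 2-fold lower and 1 higher with RPM, against 50.3% and 3.70% of all, but none was lower and 2 (miR-195a-5p and miR-497a-5p) were higher with size factors, against 15.1% and 12.2%. From P7 to P17, 4 were over 2-fold lower and none higher under both scalings, against, with RPM, 16.8% in each direction, and all 9 members lay below the median of the 648. In RPM the median log2 change from P1 to P17 was -0.75 for the 5p members and -3.50 for the 3p members, beside -1.04 for all miRNAs. Thus the members split by arm.

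**Figure D1:**
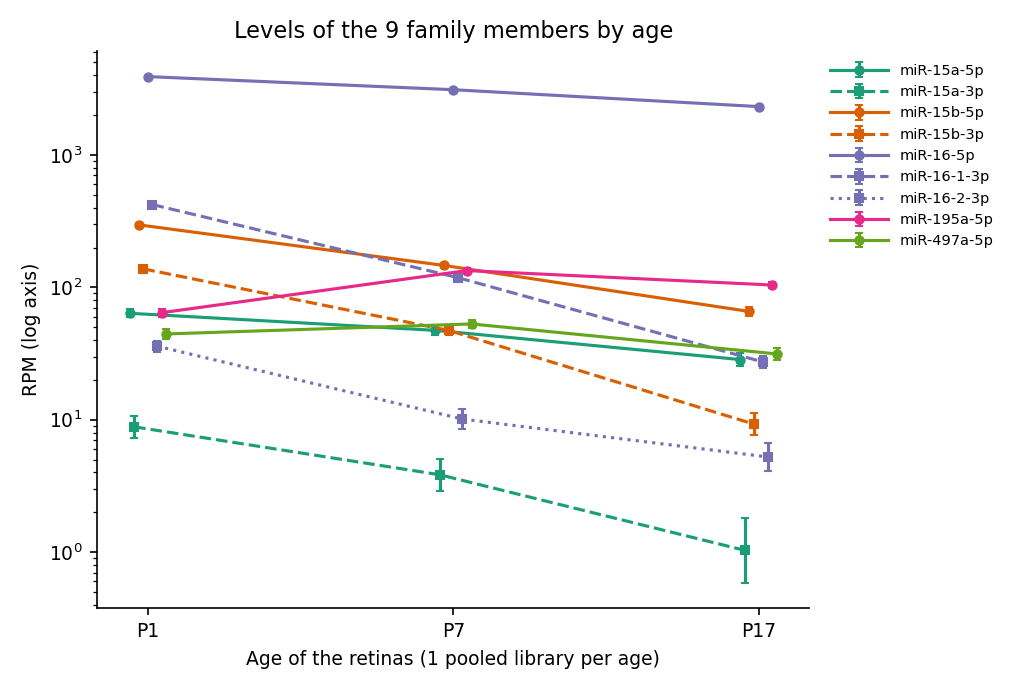
RPM (log axis) of the 9 members in the P1, P7 and P17 libraries, with 95% Wilson intervals of counting error (solid lines, 5p arms; broken lines, 3p arms; points shifted sideways for legibility). MiR-16-5p stays highest at all ages, in RPM miR-195a-5p is the member that is over 2-fold higher at P7 (with size factors miR-497a-5p is too), and from P1 to P17 the 4 broken lines fall furthest.

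MiR-16-5p was the most abundant member at every age, with 44689 reads in P1 retinas, or 3911 RPM (3875 to 3947), 39730 reads in P7 retinas, or 3114 RPM (3083 to 3144) and 27063 reads in P17 retinas, or 2321 RPM (2294 to 2349). Its rank among all miRNAs of the library was 33, 32 and 42. In RPM it was lowest at P17, and its log2 change from P1 to P17 was -0.75 (-0.77 to -0.73), which turned to 0.29 with size factors. Its change from P1 to P7 was -0.33 in RPM and 0.63 with size factors. From P7 to P17 miR-16-5p was lower under both scalings, with a change of -0.42 in RPM and -0.34 with size factors.

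MiR-15b-5p, from the Smc4 locus, was the 5p member that fell furthest. It had 3390 reads in P1 retinas, or 297 RPM (287 to 307), 1868 reads in P7 retinas, or 146 RPM (140 to 153) and 766 reads in P17 retinas, or 65.7 RPM (61.2 to 70.5), with no overlap of the intervals. The log2 change was -1.02 (-1.10 to -0.94) from P1 to P7, -1.16 (-1.28 to -1.03) from P7 to P17 and -2.17 in all (-2.29 to -2.06), a 4.52-fold fall. With size factors the first step was -0.06, near that of the typical miRNA, the second was -1.07 and the whole -1.13. Of the steps, the later was therefore over 2-fold under both scalings, and the earlier with RPM but not with size factors.

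MiR-15a-5p, from the Dleu2 locus, was less abundant, with 728 reads in P1 retinas, or 63.7 RPM (59.2 to 68.5), 604 reads in P7 retinas, or 47.3 RPM (43.7 to 51.3), and 332 reads in P17 retinas, or 28.5 RPM (25.6 to 31.7). Its log2 change from P1 to P17 was -1.16 (-1.35 to -0.97) with RPM and -0.12 with size factors. From P1 to P7 it was -0.43 with RPM and 0.53 with size factors. From P7 to P17 it was lower under both, with changes of -0.73 (-0.93 to -0.54) and -0.65.

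In RPM the chromosome 11 pair differed from miR-15 and miR-16 in the first step, with higher values at P7 than at P1. With size factors miR-15a-5p (0.53) and miR-16-5p (0.63) were also higher at P7, though by less than the pair. MiR-195a-5p had 735 reads in P1 retinas, or 64.3 RPM (59.8 to 69.2), 1709 reads in P7 retinas, or 134 RPM (128 to 140) and 1214 reads in P17 retinas, or 104 RPM (98.4 to 110). It was lowest at P1 and highest at P7, and in RPM it was the single member over 2-fold higher at P7. Its log2 change was 1.06 (0.93 to 1.18) from P1 to P7, or 2.02 with size factors, and -0.36 (-0.47 to -0.26) from P7 to P17. From P1 to P17 it was 0.69 (0.56 to 0.83) with RPM and 1.74 with size factors, higher under both. Of the 648 miRNAs, 96.5% had a lower change from P1 to P7.

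MiR-497a-5p, whose hairpin is the neighbour of Mir195a, had 508 reads in P1 retinas, or 44.5 RPM (40.8 to 48.5), 675 reads in P7 retinas, or 52.9 RPM (49.1 to 57.0) and 366 reads in P17 retinas, or 31.4 RPM (28.3 to 34.8). Its intervals did not overlap between any pair of ages. The log2 change was 0.25 (0.08 to 0.42) from P1 to P7, again higher at P7 under both scalings (1.21 with size factors), and -0.75 (-0.94 to -0.57) from P7 to P17. From P1 to P17 it was -0.50 with RPM and 0.54 with size factors, so its direction over the whole period depended on the scaling.

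The passenger strands were lower at each later age under both scalings. With size factors the smallest step was that of miR-15a-3p from P1 to P7, a log2 change of -0.24 from only 101 and 49 reads. MiR-16-1-3p had 4821 reads in P1 retinas, or 422 RPM (410 to 434), 1511 reads in P7 retinas, or 118 RPM (113 to 124) and 318 reads in P17 retinas, or 27.3 RPM (24.4 to 30.4). Its log2 change from P1 to P17 was -3.95 (-4.12 to -3.79), a 15.5-fold fall, and 5.09% of the 648 miRNAs had a lower change. MiR-15b-3p had 1576 reads in P1 retinas, or 138 RPM, 603 reads in P7 retinas, or 47.3 RPM and 108 reads in P17 retinas, or 9.26 RPM, a change of -3.90 (-4.19 to -3.61). These were the members with the largest falls, and size factors left them at -2.91 and -2.85.

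MiR-16-2-3p had 411 reads in P1 retinas, or 36.0 RPM, 129 reads in P7 retinas, or 10.1 RPM and 61 reads in P17 retinas, or 5.23 RPM, a log2 change of -2.78 (-3.19 to -2.39) with RPM and -1.74 with size factors. MiR-15a-3p was the rarest member, with 101 reads in P1 retinas, or 8.84 RPM, 49 reads in P7 retinas, or 3.84 RPM and 12 reads in P17 retinas, or 1.03 RPM (0.59 to 1.80). Its change of -3.10 (-4.10 to -2.24), or -2.06 with size factors, was the least precise of the family. All 4 passenger strands were also over 2-fold lower at P17 with size factors, with changes from -2.91 to -1.74.

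**Figure D2:**
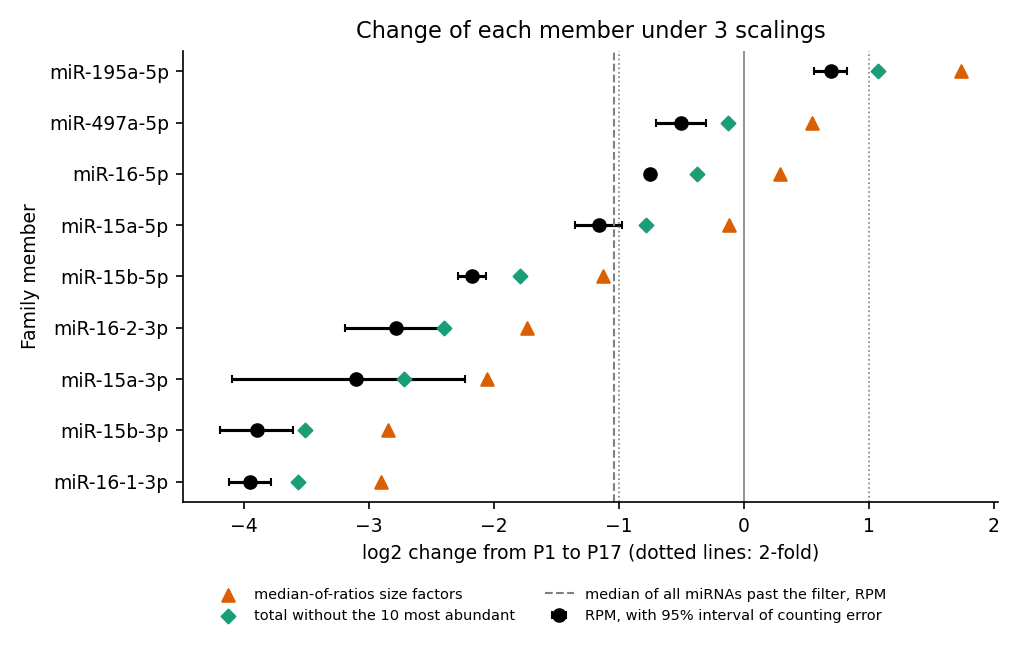
Log2 change of each member from P1 to P17 with RPM (circles, 95% exact binomial intervals of counting error), with median-of-ratios size factors (triangles) and with a total that leaves out the 13 miRNAs among the 10 most abundant of any library (diamonds). The dashed line is the median of 648 miRNAs with RPM, and the 4 members from 3p arms and miR-15b-5p stay below -1 under all 3 scalings.

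The ratio of the strands of a hairpin does not depend on the scaling of the library. For miR-15a, miR-15b and miR-16, the 5p strand gained on the 3p strand at each step. For miR-16 the reads of the 5p strand were 8.54, 24.2 and 71.4 times those of both 3p strands together in the P1, P7 and P17 libraries, and the log2 ratio changed by 3.06 (exact interval 2.91 to 3.22) from P1 to P17. For miR-15a the ratio was 7.21, 12.3 and 27.7, a log2 change of 1.94 (1.05 to 2.96). For miR-15b it was 2.15, 3.10 and 7.09, a change of 1.72 (1.41 to 2.04).

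MiR-195a, whose 3p strand is not among the 9 members and whose ratio was added after the values were seen, shifted the same way. MiR-195a-3p had 587 reads in P1 retinas, or 51.4 RPM, 409 reads in P7 retinas, or 32.1 RPM, and 148 reads in P17 retinas, or 12.7 RPM, which in RPM was the opposite order from miR-195a-5p between P1 and P7. Its log2 change from P1 to P7 was -0.68 with RPM but 0.28 with size factors. The ratio of 5p to 3p, which needs no scaling, was 1.25, 4.18 and 8.20 in turn, a log2 change of 2.71 (2.41 to 3.01). At P1 the strands of this hairpin were thus close to equal, and at P17 they were not. MiR-497a-3p had 1 or 2 reads in each library, too few for a ratio. MiR-497b, from the strand opposite Mir497, had 76 reads in P1 retinas, 53 in P7 retinas and 29 in P17 retinas.

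**Figure D3:**
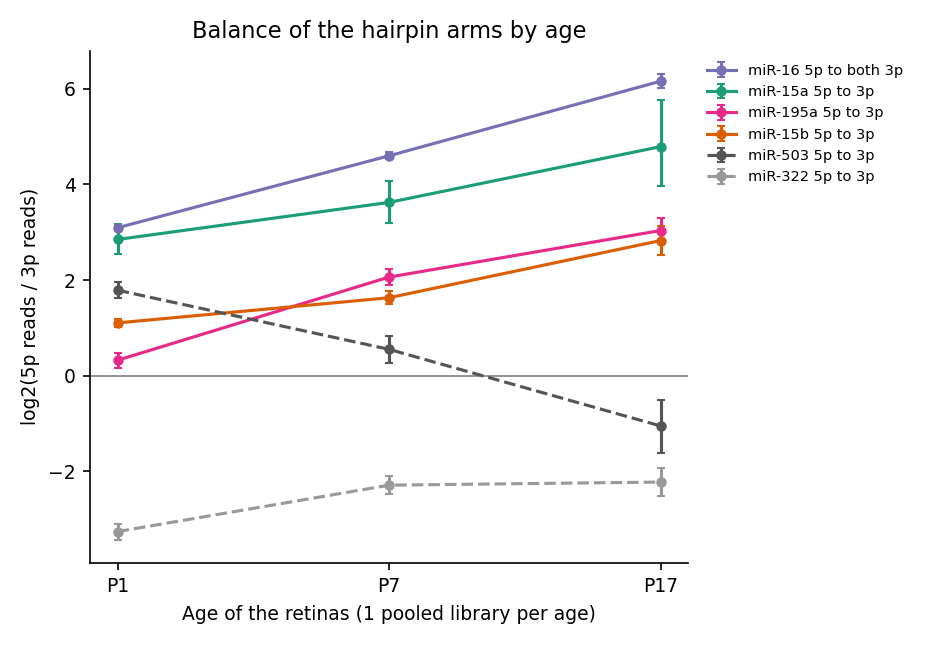
Log2 ratio of 5p to 3p reads at P1, P7 and P17 for the family's hairpins (solid lines) and for miR-322 and miR-503 (broken lines), with 95% exact binomial intervals of counting error. The 4 solid lines rise at both steps, and that of miR-503 falls at both.

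The median change of this log2 ratio from P1 to P17 was 0.16 over the 191 hairpins whose arms share a name and both reach a mean of 1 RPM, and the middle 90% lay between -1.94 and 1.77. MiR-16, miR-195a and miR-15a were above that range and miR-15b was just inside its upper end. Of the 186 hairpins outside this family and miR-322 and miR-503, 2 had a larger change than miR-16 (miR-149 with 4.62 and miR-466i with 3.33, named after their values were seen). For miR-195a there were 3 (the same 2 and miR-181c with 3.05), for miR-15a 6 and for miR-15b 9. From P1 to P7 none of the 186 had a larger change than miR-195a, at 1.74. These ranks are a description of 3 libraries and carry no test.

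**Figure D4:**
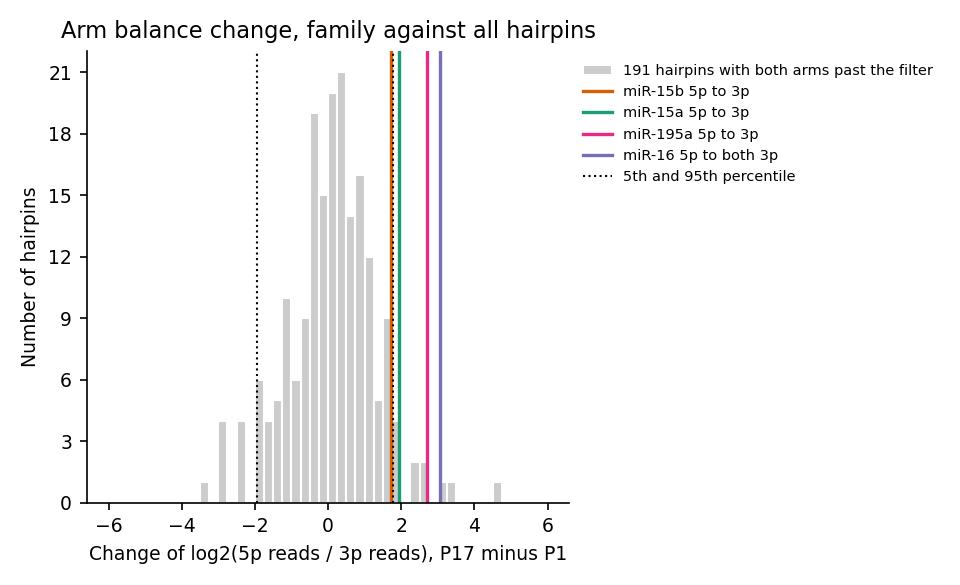
Number of hairpins by the change of log2(5p reads / 3p reads) from P1 to P17, for 191 hairpins whose arms both reach a mean of 1 RPM (grey bars, which include miR-15a, miR-15b and miR-195a but not miR-16, whose 3p strands bear other names). Coloured lines mark the family at 1.72, 1.94, 2.71 and 3.06, and dotted lines mark the 5th and 95th percentiles at -1.94 and 1.77.

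The paired loci were compared through ratios within each library, since a ratio of different sequences also holds any difference in how well they were captured, and only its change with age was read. Against miR-15b-5p, miR-15a-5p had 0.215, 0.323 and 0.433 reads per read in the P1, P7 and P17 libraries, a log2 change of 1.013 (0.79 to 1.24). Against miR-16-2-3p, miR-16-1-3p had 11.7 reads per read at P1 and again at P7, and 5.21 at P17, a change of -1.17 (-1.60 to -0.72). The form from the Dleu2 locus thus gained on that from the Smc4 locus for the miR-15 guide strand and lost for the miR-16 passenger strand. For the passenger strands of miR-15a and miR-15b the change was 0.79 (-0.25 to 1.72), which these reads do not separate from 0.

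Guide strands were also compared with miR-16-5p, whose reads come from both miR-16 loci. Against it, miR-15b-5p changed by -1.42 (-1.54 to -1.31) from P1 to P17 and miR-15a-5p by -0.41 (-0.60 to -0.22). On chromosome 11, miR-195a-5p had 1.45, 2.53 and 3.32 times the reads of miR-497a-5p in turn, a log2 change of 1.20 (0.96 to 1.44). Against miR-16-5p, from which it is 3 edits apart, miR-195a-5p changed by 1.39 (1.26 to 1.51) from P1 to P7 and by 0.06 (-0.05 to 0.17) from P7 to P17. The gain of miR-195a-5p over miR-16-5p thus lay before P7, and no further shift was detectable at this depth.

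Of the 5 other miRNAs with the seed, miR-322-5p alone had more than 1 read in a library. MiR-195b, miR-6342, miR-6353 and miR-6419, which carry the seed, had at most 1 read in any library, where 3 reads correspond to 0.235 to 0.263 RPM. MiR-322-5p, the mouse counterpart of human miR-424, had 29.1, 22.02 and 10.3 RPM in the P1, P7 and P17 libraries. Together the 5 non-members with the seed came to 29.2, 22.1 and 10.4 RPM, beside 4380, 3494 and 2551 RPM for the 5 members from 5p arms.

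MiR-322 and miR-503 form a cluster on chromosome X whose 5p strands resemble the family. The seed of miR-503-5p, AGCAGCG, differs from that of miR-16-5p in its last base. MiR-503-5p had 122, 20.2 and 3.69 RPM in turn and fell further than any of the 9 members, with a log2 change of -5.04 in RPM and -4.00 with size factors. Its 5p to 3p ratio went the other way from those of miR-15a, miR-15b, miR-16 and miR-195a, from 3.46 at P1 to 0.483 at P17, a log2 change of -2.84 (-3.42 to -2.27). That of miR-322 changed by 1.03 (0.69 to 1.37), nearly all before P7. These 2 ratios were added after the values were seen.

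The 7 5p strands of miR-17, miR-18a, miR-20a, miR-20b, miR-93, miR-106a and miR-106b, which are known as miRNAs of dividing cells, were compared with the 5 5p members. From P1 to P7 all 7 were over 2-fold lower with RPM and 3 with size factors, against 50.3% and 15.1% of the 648 miRNAs. From P7 to P17 all 7 were over 2-fold lower under both scalings, against, with RPM, 16.8% of the 648. Their log2 change from P1 to P17 had a median of -5.87 and a range of -5.99 to -3.47 with RPM, and a median of -4.82 and a range of -4.95 to -2.42 with size factors. The 5p members ranged from -2.17 to 0.69 with RPM and from -1.13 to 1.74 with size factors. The groups do not overlap under either scaling, which is given as a description of these libraries without a test.

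Likeness of pattern was measured as the Euclidean distance between pairs of log2 RPM changes (P1 to P7 and P7 to P17, from 3 libraries), among 423 other miRNAs averaging at least 10 RPM. The nearest to miR-16-5p were miR-335-5p (distance 0.07) and miR-3473b (0.08). The nearest to miR-15a-5p were miR-26a-5p (0.09) and miR-677-5p (0.11), and those to miR-15b-5p were let-7i-5p (0.09) and miR-582-5p (0.13). For miR-195a-5p they were miR-183-3p (0.26) and miR-182-3p (0.32), and for miR-497a-5p miR-96-3p (0.40) and miR-206-3p (0.43). The chromosome 11 pair thus had no neighbour as close as those of miR-15 and miR-16.

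Markers of retinal neurons and photoreceptors (miR-124-3p, miR-9-5p, miR-183-5p, miR-96-5p and miR-182-5p) together took 22.4%, 43.2% and 38.8% of the reads in the P1, P7 and P17 libraries, so defining markers of the labelled tissue were abundant. Among them miR-9-5p was lower at P17 than at P1 in RPM, with a log2 change of -0.96, or 0.08 with size factors. MiR-124-3p, miR-183-5p, miR-96-5p and miR-182-5p were higher at P17 under both scalings. The 4 markers of red blood cells, which are known to be rich in miR-16, summed to 163, 117 and 160 RPM. From P1 to P17 they did not change alike in RPM. MiR-451a had 45.5, 11.7 and 27.9 RPM, a log2 change from P1 to P17 of -0.71. In RPM miR-144-3p, miR-144-5p and miR-486a-5p were higher at P17 than at P1, with log2 changes of 1.97, 1.29 and 0.12. With size factors all 4 were higher at P17, with 0.34 for miR-451a and 3.02, 2.34 and 1.17 for the others. The 4 markers of blood immune cells summed to 13.6, 17.7 and 35.9 RPM. Most of the rise at P17 was miR-150-5p, with 0.53, 1.8 and 17.75 RPM. MiR-142a-3p had 6.91, 8.46 and 8.49 RPM and miR-142a-5p 5.95, 7.21 and 9.01 RPM. MiR-223-3p had at most 7 reads in a library. Markers of vessels rose with age, with 1261, 3643 and 8530 RPM for the 2 strands of endothelial miR-126a and 0.0195%, 0.0376% and 0.149% of the reads for mural miR-143-3p and miR-145a-5p. The 2 markers of pigment epithelium, which the retina also expresses, summed to 15210, 7226 and 14330 RPM, the 2 of lens and cornea to 103, 119 and 570 RPM, and the 3 of skeletal muscle to 132, 90.0 and 240 RPM. From P1 to P17 the pigment epithelium markers went opposite ways in RPM, miR-204-5p from 14662 to 9019 RPM and miR-211-5p from 550 to 5315 RPM. With size factors both were higher at P17, with log2 changes of 0.34 and 4.32. In the lens and cornea sum miR-184-3p rose from 101 to 569 RPM, whereas miR-205-5p fell from 2.71 to 0.69 RPM. In the muscle sum, from P1 to P7, miR-206-3p rose from 15.75 to 22.73 RPM, whereas miR-1a-3p and miR-133a-3p fell in RPM. None of these markers was at 0 in any library, and their part in the changes of the family was not tested.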

How the data were processed

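Small RNA of P1, P7 and P17 retinas was sequenced. The table that the authors deposited per library lists for every mature miRNA a read count, which is not normalized, and an RPM. The RPM of the authors is the count scaled to the library's total over all miRNAs, to within 0.0192 RPM. Adaptors and low-quality reads had been removed from 50-nt reads. The paper's methods name HISAT2 for the alignment to mm10, whereas the submitters' processing notes name BWA. The miRNA annotation and the counting rule are not given in the sources used here. Such choices decide how reads of near-identical miRNAs are shared.

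The members and lists were chosen with earlier results of these data known. Members were found by name. Log2 changes are ratios of RPM without a pseudocount, with exact binomial intervals. A library at 0 was set to the floor of 3 reads, and to 1 read for the ratios of arms over all hairpins. The fold criterion was 2-fold over the 648 miRNAs whose mean over the libraries reached 1 RPM. The paper's adjusted p-value could not be formed with 1 library per age. Size factors (644 miRNAs with reads in every library) were 1.50, 0.862 and 0.743, and TMM factors 1.60, 0.808 and 0.774. Ratios within a library have exact conditional odds ratio intervals. The miRNAs named are the members, other forms of their loci, miRNAs of the same seed, the compared lists, the 2 nearest patterns of each 5p member and tissue markers. At these depths 1 read is worth 0.0784 to 0.0875 RPM. The log2 changes, their intervals and the intervals of ratios were tested on simulated counts without a shift in composition. Size factors, TMM factors, arm ranks and nearest patterns were not tested in this way. TMM factors came from edgeR 4.0.16 in R 4.3.3, intervals from scipy 1.17.1 in Python 3.11.15 with pandas 2.3.3 and numpy 2.4.6, and plots from matplotlib 3.10.9.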

Additional observations from a re-analysis of the deposited data

How the results depend on the processing

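The scaling decided the direction of the summed family from P1 to P7, which was -0.44 in RPM, 0.52 under median-of-ratios size factors and 0.55 under TMM factors. It was 0.18 where the 13 miRNAs that were among the 10 most abundant of any library were left out of the total. From P1 to P17 it was -0.94, 0.10, 0.10 and -0.56, and from P7 to P17 -0.50, -0.42, -0.44 and -0.75. MiR-195a-5p was over 2-fold higher at P17 (1 member against 0) with each of these 3 scalings, and 1 member was higher at a fold criterion of 1.5. From P1 to P17, 6 members were over 2-fold lower, and 5 or 6 under the other scalings, pseudocounts and filters, against 7 at a criterion of 1.5 and 5 at 4. The filter of 10 RPM gave 5 because it removed miR-15a-3p, which was below 10 RPM at every age. From P1 to P7, in counts added after the data were seen, size factors turned 5 members lower and 1 higher to 0 and 2, and 7 lower miR-17 and miR-18 5p forms to 3. Over the 648 miRNAs, from P1 to P17, 332 were lower and 71 higher with RPM, 179 and 174 with size factors, and 179 and 174 with TMM factors. Without a filter 572 were lower and 201 higher with RPM, and 209 were lower with a filter of 10 RPM. These last counts are over larger and smaller sets of miRNAs, so they are not shares of the 648. Of 135 values for single members, 60 moved beyond counting error and 10 changed sign, all for miR-15a-5p, miR-16-5p or miR-497a-5p in steps that start from P1. None of 30 changes between ages of the planned within-library ratios moved beyond counting error when 1 read was added to each form. The arm ratios of miR-195a, miR-322 and miR-503, added later, were not checked in this way. No paired analysis was possible because every age is a single library, and no library could be left out. Depth limits miR-15a-3p most, with 12 reads at P17.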
